A study of Mus musculus with 6 samples.

Results

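The genes described here are 9 components of the Sonic hedgehog pathway in the cerebellum of the young mouse, out of 55487 genes in the count tables. They were taken from a fixed list by symbol and not by a rule on measured values, though earlier results of these data were known. They cover the ligand (Shh), the receptors and the signal transducer (Ptch1, Smo), the co-receptors (Boc, Cdon), the Gli transcription factors (Gli1, Gli2, Gli3) and a feedback inhibitor (Hhip). All 9 passed the filter on low counts, which left 18237 genes to test. Cerebella were collected at 14 days of age from male mice that were either homozygous for a knockout allele of Galnt17, formerly called Wbscr17 (KO, n = 3), or wild type of the B6C3 stock (WT, n = 3). The allele, Galnt17tm1.1(KOMP)Vlcg, is inherited through the germline. It was crossed from C57BL/6J into B6C3 hybrids, which descend from C57BL/6J and C3H/He mice, because no homozygotes were born alive on the C57BL/6 background. The labels do not say that the WT mice were littermates of the KO mice, so alleles of the 2 parental strains can also differ between the groups. Each library came from the whole cerebellum of 1 mouse, and the labels name no treatment in either group.

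Sonic hedgehog in the postnatal cerebellum is made by Purkinje cells and drives division of granule cell precursors in the external granular layer. Without ligand the receptor Patched keeps Smoothened silent. When Hedgehog binds Patched, Smoothened acts through the primary cilium so that the Gli proteins turn on targets, which include Gli1, Ptch1 and Hhip themselves. Gli1 and Ptch1 transcripts therefore serve as readouts of pathway activity, and Bergmann glia carry them as well as granule cell precursors. The comparison asks whether loss of Galnt17, which encodes a member of the enzyme family that starts mucin-type O-glycosylation, went with a different level of any part of this pathway.

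Gene counts per library totalled 17111611 to 29840046. The targeted gene Galnt17 was counted 72, 80 and 63 times in KO mice, against 1119, 729 and 963 times in WT mice, so the labels fit the counts. WT replicate 1 stood apart from the other libraries. Across genes its deviation from the mean level had a Spearman correlation of -0.26 with GC content, against -0.07 to 0.15 in the other 5, and without it 10.5% of all genes tested were called different in place of 1.66%. The fold change of each Hedgehog gene and the calls in each list are therefore also given without this library. Read shares separated the groups too, with unmapped reads at 13.8 to 17.2% in KO and 6.52 to 10.03% in WT, multimapping reads at 3.72 to 3.90% in KO and 4.09 to 4.29% in WT, and mitochondrial counts at 3.23 to 3.37% in KO and 3.08 to 3.15% in WT. The part of these shares in the results was not tested. Marker lists matched the labelled tissue. The 16 Purkinje cell genes summed to 5722 to 5887 CPM (counts scaled by library size) in KO and 4718 to 5016 CPM in WT. The 8 brainstem genes summed to 5.26, 3.87 and 4.02 CPM in KO and 5.84, 5.40 and 14.8 CPM in WT. Every KO sum was thus below every WT sum, and WT replicate 3 stood well above the rest. The 13 choroid plexus markers summed to 242 to 803 CPM in KO and 1638 to 2939 CPM in WT. None of these markers was at 0 in every library.

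None of the 9 Hedgehog genes passed the test, an adjusted p below 0.05 from edgeR's quasi-likelihood fit (Benjamini-Hochberg over all genes), against 1.66% of all genes tested (302 genes). The count was also 0 of 9 in DESeq2, which called 3.08% of all genes, in limma-voom (1.71%), with DESeq2 size factors (1.67%), with a filter of 1 CPM in 3 libraries (1.72%) and with an offset for GC content (1.77%). It stayed at 0 on leaving out KO replicate 1 (0.643% of all genes), KO replicate 2 (0.441%), KO replicate 3 (0.667%), WT replicate 2 (0.729%) or WT replicate 3 (1.82%). With no filter on low counts, which called 4.85% of all genes, 1 member passed, and without WT replicate 1 (10.5%) 2 passed. At an unadjusted p below 0.05 there was 1 member, Gli1, higher in KO, against 17.6% of all genes in either direction and 8.57% with KO higher. For all 9 genes the 95% interval of the fold change lay within 1.5-fold in either direction, which was so for 66.5% of all genes. The median log2 fold change of the 9 was 0.03, against -0.01 over all genes. In 1 of 9 genes, again Gli1, the KO and WT values did not overlap, against 23.7% of all genes in either direction and 11.5% with KO higher. In whole tissue, a different number of cells of a type and a different amount of RNA per cell cannot be told apart.

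**Figure D1:**
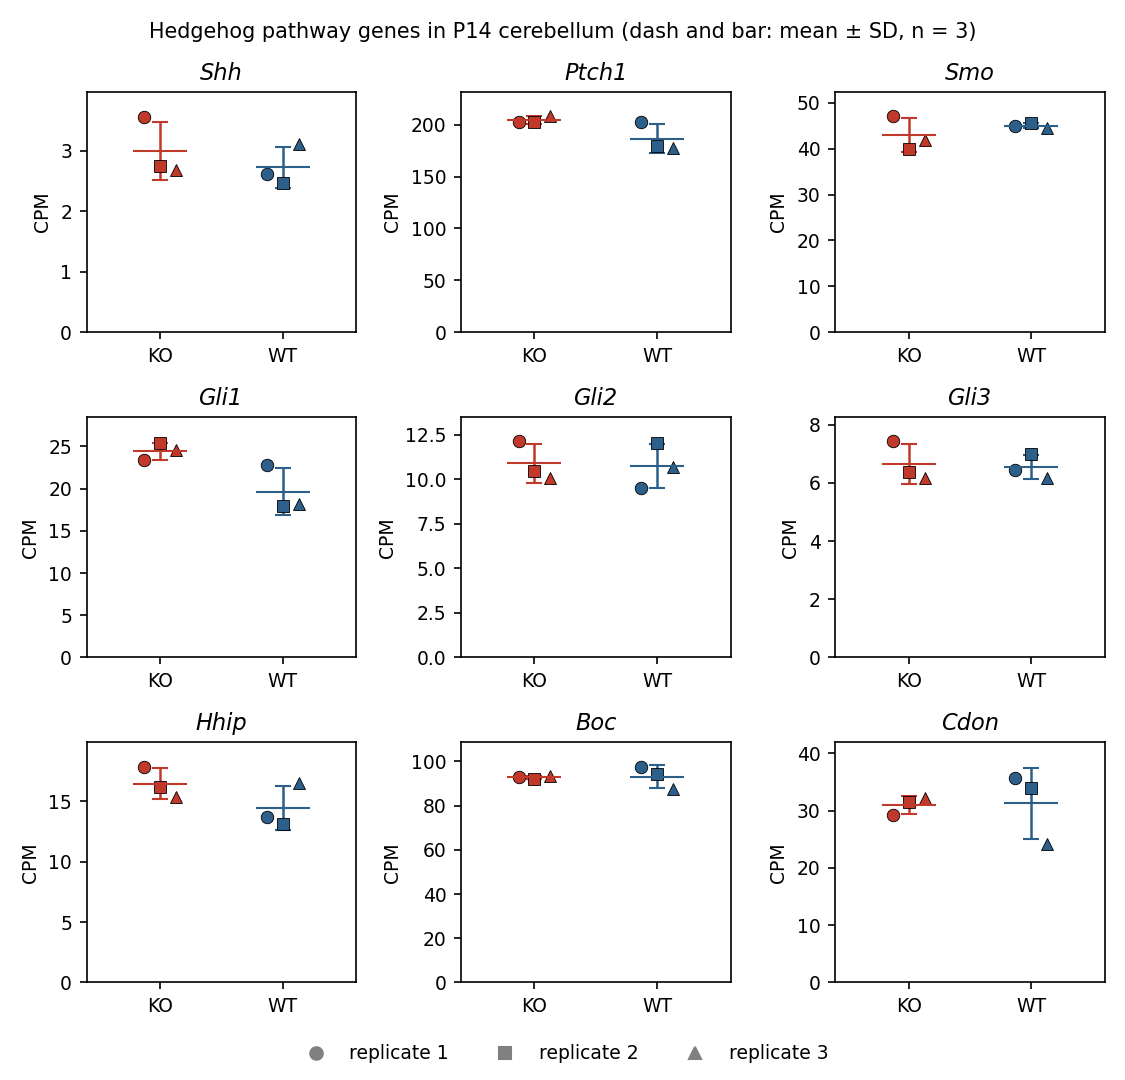
Level of each Hedgehog pathway gene in CPM (vertical axes, from 0) in the 3 KO libraries (left, red) and the 3 WT libraries (right, blue), with marker shape for the replicate and dash and bar for mean ± SD (n = 3). Gli1 is the gene whose groups are separate, with KO between 23.4 and 25.4 CPM and WT between 17.9 and 22.8 CPM.

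Shh encodes the ligand (ENSMUSG00000002633, chromosome 5, 28456815 to 28467256, minus strand, GRCm38). Reads numbered 106, 64 and 54 in KO and 63, 42 and 64 in WT, for levels of 3.55, 2.75 and 2.68 CPM in KO and 2.61, 2.46 and 3.11 CPM in WT. The ranges of the groups overlapped, with KO replicate 1 highest of all 6. The fold change was 1.103 (95% interval 0.82 to 1.49, adjusted p = 0.739), and 1.08 (0.78 to 1.49) without WT replicate 1. Without KO replicate 1 it was 0.995 (0.70 to 1.41). Since Purkinje cells are the known source of Shh, its counts were also set against those of the 16 Purkinje cell markers in the same library. There were 0.621, 0.475 and 0.456 Shh counts per 1000 summed Purkinje marker counts in KO and 0.520, 0.522 and 0.635 in WT, and the groups overlapped (exact permutation test, two-sided, p = 0.5, where 3 against 3 libraries cannot go below 0.1). The marker sum was itself higher in every KO library (5722 to 5887 CPM) than in any WT library (4718 to 5016 CPM). The ratio, with a log2 difference of -0.12, therefore also carries the difference in the markers. With so few counts, Shh had the widest interval of the 9 genes.

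Ptch1 encodes the main Hedgehog receptor, which is also a target of the pathway and so limits its own signal (ENSMUSG00000021466, chromosome 13, 63508328 to 63573598, minus strand). Its level was 202.3, 202.7 and 208.6 CPM in KO and 202.3, 179.6 and 177.1 CPM in WT. The KO libraries lay close together. WT replicate 1 was at the level of the KO mice, and WT replicates 2 and 3 were below all other libraries. The mean was 204.5 ± 3.55 CPM in KO and 186.4 ± 13.9 CPM in WT (SD, n = 3 each), 1.097-fold higher (95% interval 0.998 to 1.21, adjusted p = 0.293). Without WT replicate 1 the difference was 1.15-fold (1.07 to 1.23) and passed the test (adjusted p = 0.0246), as did 10.5% of all genes in that comparison.

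Smo encodes the seven-pass membrane protein that Patched holds in check (ENSMUSG00000001761, chromosome 6, 29735503 to 29761365, plus strand). It was at 47.2, 39.9 and 41.8 CPM in KO and 44.9, 45.6 and 44.5 CPM in WT. The WT values lay inside the range of the KO values. The log2 fold change was -0.06 (SE 0.07, adjusted p = 0.674), and -0.06 again without WT replicate 1.

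Boc and Cdon encode related cell-surface proteins that bind Hedgehog and help present it to Patched. Boc (ENSMUSG00000022687, chromosome 16, 44485049 to 44558897, minus strand) was at 93.2, 92.2 and 93.5 CPM in KO and 97.6, 94.3 and 87.4 CPM in WT. The KO values fell within the span of the WT values, and the fold change had the narrowest interval of the 9 genes, 0.998 (95% interval 0.92 to 1.09, adjusted p = 0.982). Cdon (ENSMUSG00000038119, chromosome 9, 35421128 to 35507652, plus strand) was at 29.3, 31.5 and 32.2 CPM in KO and 35.7, 34.0 and 24.2 CPM in WT. WT replicate 3 was the lowest of the 6 libraries and the other WT libraries were the highest, so that the SD was 1.52 CPM in KO and 6.18 CPM in WT. The log2 fold change of Cdon was -0.01 (SE 0.12, adjusted p = 0.963) with all libraries and 0.10 (SE 0.12) without WT replicate 1. Without WT replicate 3 it was -0.17 (95% interval -0.33 to -0.01, unadjusted p = 0.0390, adjusted p = 0.266), and over all 12 alternatives it ran from -0.17 to 0.10.

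Among the Gli factors, Gli1 is an activator whose transcription depends on the pathway (ENSMUSG00000025407, chromosome 10, 127329882 to 127341974, minus strand). Counts were 697, 590 and 496 in KO and 551, 305 and 374 in WT, and levels were 23.4, 25.4 and 24.6 CPM in KO and 22.8, 17.9 and 18.2 CPM in WT. All 3 KO libraries were above all 3 WT libraries, with WT replicate 1 just below the lowest KO value. Gli1 was 1.24-fold higher in KO (95% interval 1.06 to 1.45), with an unadjusted p of 0.0117 and an adjusted p of 0.158, so it did not pass. Without WT replicate 1 it was 1.35-fold higher (1.19 to 1.54) and passed (adjusted p = 0.0114), in a comparison that called 10.5% of all genes. Leaving out any other library gave adjusted p values of 0.249 to 0.436.

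Gli2 encodes the main activator that responds first to Smoothened, and Gli3 the factor whose cleaved form is the main repressor. Gli2 (ENSMUSG00000048402, chromosome 1, 118834132 to 119053619, minus strand) was at 12.1, 10.4 and 10.1 CPM in KO and 9.52, 12.03 and 10.7 CPM in WT. Gli3 (ENSMUSG00000021318, chromosome 13, 15463235 to 15730026, plus strand) was at 7.44, 6.36 and 6.16 CPM in KO and 6.46, 6.98 and 6.17 CPM in WT. In both genes the groups overlapped, and KO replicate 1 was the highest library of the 6. Gli2 had a log2 fold change of 0.03 (SE 0.12, adjusted p = 0.932) and Gli3 of 0.03 (SE 0.13, adjusted p = 0.926). Without WT replicate 1 these were -0.05 and 0.03. Transcript counts do not show how much Gli3 protein is cleaved.

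Hhip encodes a membrane-bound protein that binds and traps Hedgehog ligands and is itself induced by the pathway (ENSMUSG00000064325, chromosome 8, 79965851 to 80058006, minus strand). It was at 17.8, 16.2 and 15.3 CPM in KO and 13.7, 13.1 and 16.5 CPM in WT. WT replicate 3 lay above 2 of the KO libraries, so the groups overlapped. The fold change was 1.14 (95% interval 0.96 to 1.35, adjusted p = 0.399), and 1.11 (0.92 to 1.33) without WT replicate 1. In Hhip, unlike Gli1 and Ptch1, WT replicate 1 was not the WT library nearest to the KO values.

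**Figure D2:**
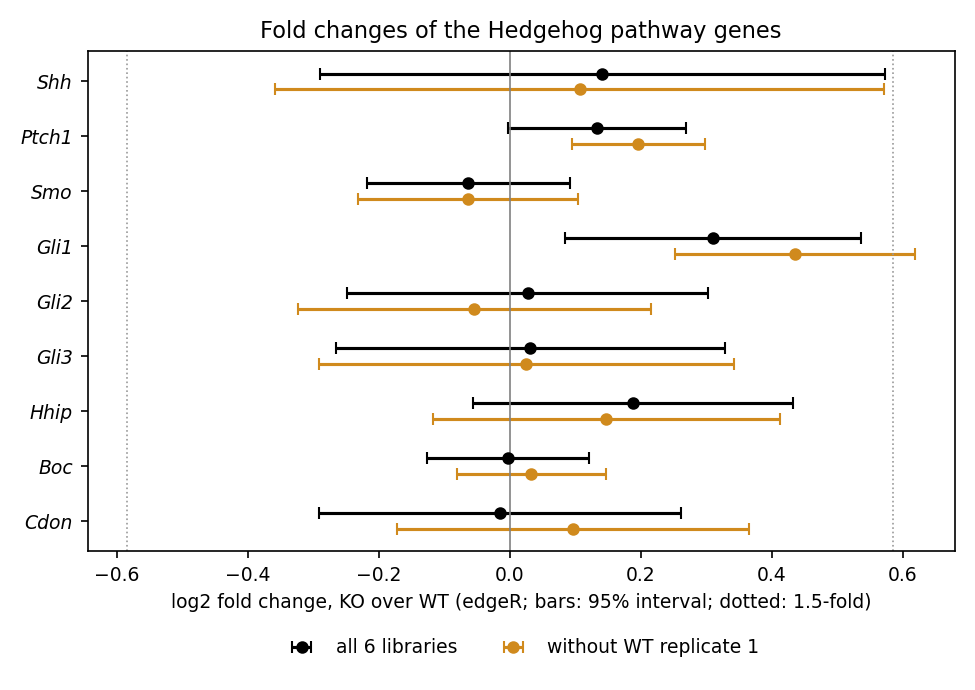
Log2 fold change of each gene, KO over WT, in edgeR's fit (horizontal axis, bars for the 95% interval), with all 6 libraries (black) and without WT replicate 1 (orange). With all libraries every interval lies inside the dotted lines at 1.5-fold, and that of Gli1 lies wholly above 0. Without WT replicate 1 those of Gli1 and Ptch1 lie wholly above 0, and that of Gli1 reaches past the 1.5-fold line.

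The target genes among the members, Gli1, Hhip and Ptch1, had log2 fold changes of 0.31, 0.19 and 0.13, and Shh one of 0.14 (-0.01 without KO replicate 1), while those of the other 5 genes lay between -0.06 and 0.03. The 3 targets were also set against Smo, which is not known as a target, within each library. The ratio of Gli1 to Smo counts was 0.495, 0.635 and 0.589 in KO and 0.508, 0.393 and 0.409 in WT. For Ptch1 it was 4.29, 5.08 and 4.99 in KO and 4.51, 3.94 and 3.98 in WT. Hhip gave 0.378, 0.406 and 0.367 in KO and 0.305, 0.288 and 0.372 in WT. Each of these ratios overlapped between the groups, through WT replicate 1 for Gli1 and Ptch1 and through WT replicate 3 for Hhip. The ratio of Gli1 to Gli3 counts, an activator against the gene of the main repressor, was 3.14, 3.99 and 4 in KO and 3.53, 2.56 and 2.94 in WT. Exact two-sided permutation tests gave p = 0.2 for each of these 4 ratios (0.25 when adjusted over 5 ratios, the one for Shh included).

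Levels of different genes were compared as CPM per kilobase of merged exons. Boc was the highest, at 20.9 ± 0.153 in KO and 20.9 ± 1.17 in WT (SD, n = 3 each), followed by Ptch1 at 14.4 ± 0.250 in KO and 13.1 ± 0.978 in WT. Smo came next, at 7.65 ± 0.670 in KO and 8.003 ± 0.0996 in WT. Below it were Gli1, at 4.89 ± 0.203 in KO and 3.93 ± 0.554 in WT, and Cdon, at 4.02 ± 0.197 in KO and 4.05 ± 0.801 in WT, whose values over the 6 libraries overlapped. Hhip, at 1.81 ± 0.139 in KO and 1.59 ± 0.200 in WT, and Gli2, at 1.58 ± 0.159 in KO and 1.56 ± 0.182 in WT, also overlapped. Shh was at 1.05 ± 0.170 in KO and 0.958 ± 0.119 in WT, and Gli3 was the lowest at 0.694 ± 0.0718 in KO and 0.682 ± 0.0427 in WT. All other neighbours in this order were apart in all 6 libraries. The co-receptor Boc thus led the order and the ligand was among the 2 lowest genes. Of the summed level of the 3 Gli genes per length, Gli1 made up 64.8, 69.9 and 70.0% in KO and 68.9, 59.1 and 62.3% in WT. With the length of the longest transcript in place of merged exons all 9 genes kept their rank, but Boc and Ptch1, and Shh and Gli3, then overlapped.

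**Figure D3:**
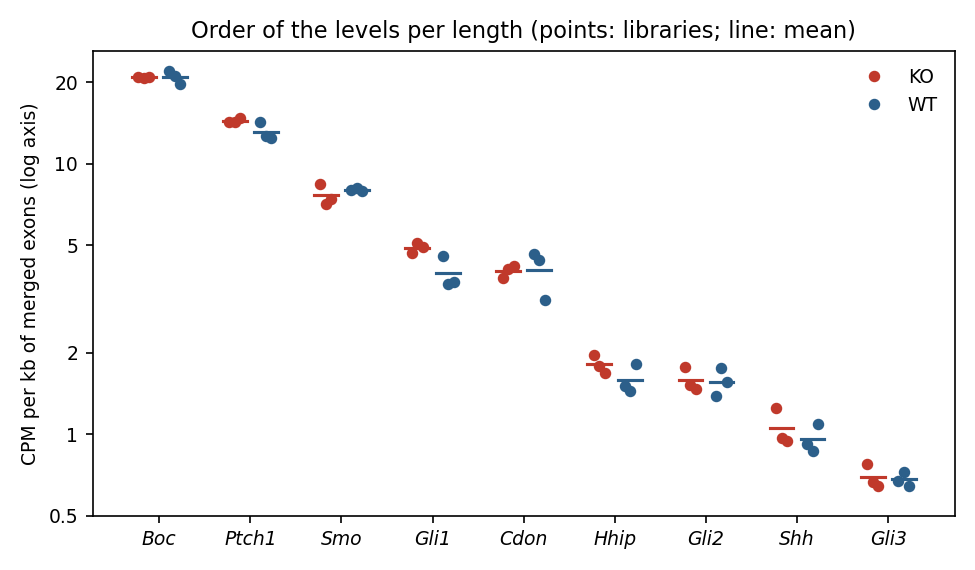
Level of each Hedgehog pathway gene per kilobase of merged exons (vertical log axis), in KO (left of each pair, red) and WT (right, blue) libraries, with lines for the means. Boc, Ptch1 and Smo are the 3 highest and Shh and Gli3 the 2 lowest in both groups.

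Beyond their place in the pathway the 9 genes share little in position. They lie on 8 chromosomes, with only Ptch1 and Gli3 on the same one, chromosome 13. Merged exon lengths ran from 2847 bases for Shh to 14185 for Ptch1, and the GC content of the longest transcript from 41.2% for Hhip to 59.0% for Gli1. Gli1 shares exon sequence with the protein-coding gene Arhgap9 on the opposite strand, and Shh, Gli3 and Hhip with non-coding genes on the opposite strand. Since the counts were made without strand, reads from these overlaps cannot be assigned to either gene. RefSeq promoter windows (GRCm38.p6, 250 bases before to 50 after the start) were at hand for Ptch1, Smo, Gli2, Gli3, Hhip and Cdon. Those of Ptch1 (63565686 to 63565985) and Cdon (35451826 to 35452125) lie wholly inside the genes as annotated here, away from their outermost starts. None of these 6 windows held the Gli-binding letters GACCACCCA or their core CCACCCA on either strand, a core found in 9.3% of 32851 such windows, which says only that these letters are not in these windows.

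Other genes of the pathway were taken from 5 lists of 65 different genes, of which 63 were tested. Of these 63, 0 rose and 0 fell in edgeR. At an unadjusted p below 0.05, 3 were higher and 9 lower, against 17.6% of all genes in either direction. The median log2 fold change of the 63 was -0.03, against -0.01 over all genes. DESeq2, which called 3.08% of all genes, called 2 of the 63, Gpc5 and Sfrp1, both lower. Leaving out WT replicate 1, edgeR called 1 higher (Bmi1) and 4 lower (Gpc5, Prkaca, Sfrp1 and Atoh1), against 10.5% of all genes.

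The list of ligands and their release held 5 tested genes, with a median log2 fold change of -0.10. Scube2, whose secreted product helps release lipid-bearing Hedgehog, was at 0.780 ± 0.188 CPM in KO and 1.40 ± 0.248 CPM in WT (adjusted p = 0.175). Scube3, a relative, was at 3.03 ± 0.652 CPM in KO and 4.27 ± 1.29 CPM in WT, and Hhat, the acyltransferase that attaches palmitate to the ligand, at 1.64 ± 0.218 CPM in KO and 1.35 ± 0.165 CPM in WT. The ligand genes Ihh and Dhh fell below the filter, with means of 0.287 and 0.122 CPM in KO and 0.374 and 0.0978 CPM in WT. Hence Shh was the ligand gene of the family with the highest counts in both groups.

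Of 7 further membrane proteins, with a median of -0.00, Gpc5 had the smallest p. It encodes a glypican, a heparan sulphate proteoglycan of the cell surface, and was at 4.26, 5.46 and 4.02 CPM in KO and 5.71, 6.57 and 10.9 CPM in WT. The groups did not overlap, and the difference did not pass in edgeR (adjusted p = 0.144) but did in DESeq2 (adjusted p = 0.0497) and without WT replicate 1 (0.0226). Gpc3, another glypican, was at 3.58 ± 0.961 CPM in KO and 4.62 ± 1.46 CPM in WT.

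Between Smoothened and the Gli factors, 20 intracellular regulators had a median of -0.02. Prkaca, the catalytic subunit of protein kinase A, which holds the pathway off by marking Gli proteins for processing, was at 165, 164 and 164 CPM in KO and 169, 194 and 204 CPM in WT. Every KO library was below every WT library (adjusted p = 0.177, and 0.00659 without WT replicate 1). Rab23, a small GTPase that restrains the pathway, was at 38.2 ± 1.43 CPM in KO and 42.5 ± 0.979 CPM in WT (adjusted p = 0.215). Sufu, which holds Gli proteins in the cytoplasm, was at 60.3 ± 0.405 CPM in KO and 67.5 ± 6.18 CPM in WT (adjusted p = 0.256). These 3 repressors of the pathway had the smallest p values of the list, all with lower means in KO and none passing. At an unadjusted p below 0.05 the list had 1 gene higher and 3 lower, against 17.6% of all genes in either direction. Of the 20 genes, 9 had a positive log2 fold change, among them Kif7 (0.14) and Csnk1a1 (0.04).

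For the primary cilium the median of 16 genes was -0.03. Inpp5e, a ciliary phosphatase, was at 61.4 ± 1.65 CPM in KO and 55.7 ± 2.95 CPM in WT (adjusted p = 0.254). Ift172, of intraflagellar transport, was at 51.7 ± 1.75 CPM in KO and 47.1 ± 3.57 CPM in WT, and the adenylyl cyclase gene Adcy3 at 21.8 ± 0.934 CPM in KO and 23.9 ± 2.06 CPM in WT.

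The 16 other target genes, known to respond to Hedgehog in granule cell precursors, had a median of -0.10. At an unadjusted p below 0.05, 1 was higher and 4 were lower, against 17.6% of all genes in either direction. Sfrp1, a secreted Wnt inhibitor, was at 43.2, 34.3 and 32.2 CPM in KO and 45.1, 59.9 and 49.7 CPM in WT. Its groups did not overlap, and it did not pass in edgeR (adjusted p = 0.0862) but did in DESeq2 (0.00429) and without WT replicate 1 (0.0157). Atoh1, the transcription factor that defines dividing granule cell precursors, was at 1.61, 1.85 and 0.844 CPM in KO and 2.24, 3.64 and 2.58 CPM in WT, also with no overlap (adjusted p = 0.144, and 0.0469 without WT replicate 1). Bmi1, a Polycomb gene needed for precursor growth, was at 96.4 ± 2.41 CPM in KO and 82.8 ± 9.49 CPM in WT (adjusted p = 0.183, and 0.0133 without WT replicate 1). Without WT replicate 1, a comparison that called 10.5% of all genes, Gli1, Ptch1 and Bmi1 were called higher, and Sfrp1 and Atoh1 lower. The targets called in that comparison thus did not move one way. With all libraries none of them passed in edgeR.

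**Figure D4:**
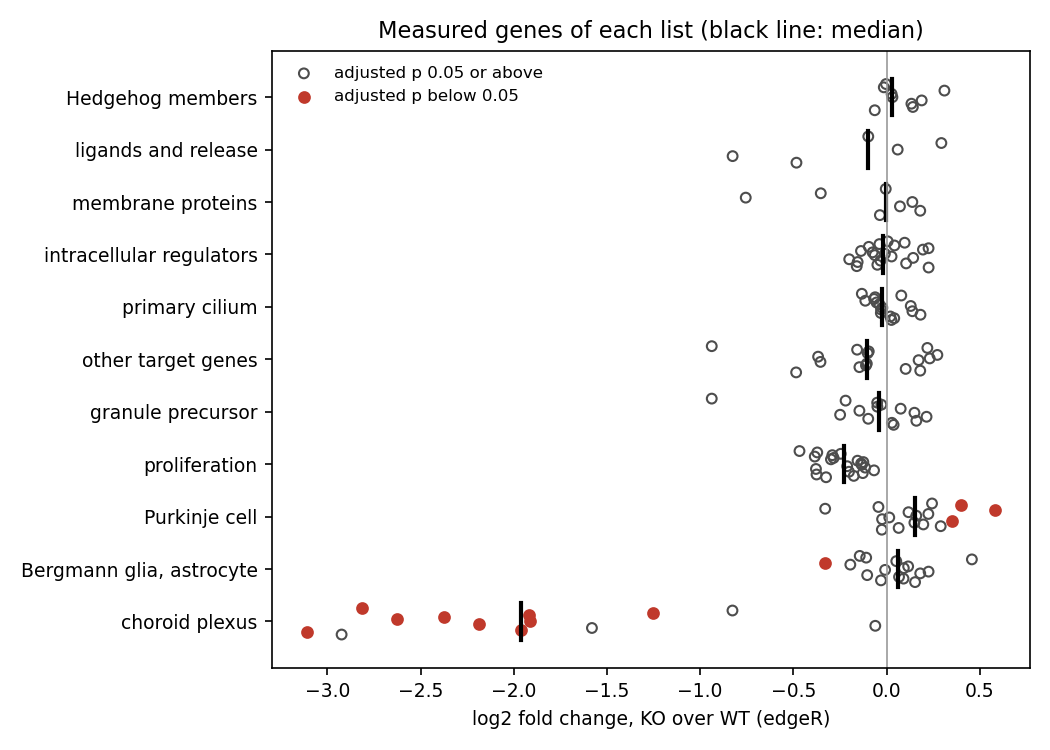
Log2 fold change, KO over WT (horizontal axis), of every tested gene in the Hedgehog lists and in 5 lists of cell types and dividing cells, each circle 1 gene, filled where the adjusted p was below 0.05, with a black line at the median. No Hedgehog, cilium or target gene is filled. The filled genes are 3 Purkinje cell genes above 0, and 9 choroid plexus genes and Etv5 of the glial list below it.

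Markers of the cells that make or receive the signal are set beside these values. Among 16 Purkinje cell genes, 3 rose and 13 did not pass, with a median of 0.15. Of all genes tested, 1.66% were called in either direction. The 3 Purkinje cell genes were Gng13, a G-protein subunit gene, Pcp2 and Car8. Gng13 was at 38.9 ± 2.59 CPM in KO and 25.98 ± 2.95 CPM in WT (adjusted p = 0.0123). Each of these calls was lost on leaving out KO replicate 2 (adjusted p of 0.0924, 0.171 and 0.189) or KO replicate 3 (0.0628, 0.125 and 0.164). Leaving out KO replicate 1 ended the calls of Pcp2 (0.0700) and Car8 (0.1296). Those of Gng13 (0.0534) and Car8 (0.134) ended when WT replicate 2 was left out. The list had 7 genes that rose, these 3 among them, without WT replicate 1, a fit that called 10.5% of all genes. None of the 20 proliferation genes passed in edgeR or in DESeq2. At an unadjusted p below 0.05, 4 of the 20 were lower, against 1639 of the 18237 genes tested. The log2 fold change was positive in 0 of the 20, against 8845 of the 18237, and no test was run over the list. In edgeR 4 of the 20 fell without WT replicate 1 (10.5% of all genes called), and 3 fell with no filter on low counts (4.85%). The median of the 20 was -0.23, and their summed level was 339, 329 and 283 CPM in KO and 334, 410 and 370 CPM in WT. Mki67, a marker of cycling cells, was at 32.7 ± 5.46 CPM in KO and 42.9 ± 7.94 CPM in WT (adjusted p = 0.207, and 0.0285 without WT replicate 1). The part of these markers in the values of the Hedgehog genes was not tested.

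Of 14 granule cell precursor markers none passed, and their median was -0.04. When WT replicate 1 was left out, 1 rose (Zic1) and 1 fell (Atoh1), against 10.5% of all genes called. Zic1, a transcription factor gene of granule cells and their precursors, was at 1219, 1222 and 1178 CPM in KO and 1027, 1073 and 1019 CPM in WT. The groups were apart, and Zic1 did not pass in edgeR (adjusted p = 0.106) but did in DESeq2 (0.00562) and without WT replicate 1 (0.0438). Bergmann glia and astrocyte genes, 16 in all, held 1 gene that fell, against 1.66% of all genes called. It was Etv5, a transcription factor gene downstream of FGF signalling. Etv5 was at 70.8, 72.9 and 74.1 CPM in KO and 92.5, 96.0 and 85.0 CPM in WT (adjusted p = 0.0232), and leaving out any 1 of the KO replicates or WT replicate 2 ended the call (0.0917 to 0.143). With WT replicate 1 left out the list had 3 genes that rose and 1 that fell, against 10.5% of all genes called. The summed level of the glial list was 4809 to 4875 CPM in KO and 4669 to 4981 CPM in WT, so the groups overlapped.

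In the choroid plexus list 9 of 13 genes fell, against 1.66% of all genes called in either direction. Among the 9, Aqp1, a water channel gene, was at 0.670, 1.85 and 2.38 CPM in KO and 7.16, 12.1 and 14.0 CPM in WT (adjusted p = 0.00466). The others were Folr1, Enpp2, Slc4a5, Kl, Kcne2, Kcnj13, Sostdc1 and F5, with log2 fold changes of -3.11 to -1.25. Without KO replicate 2 only Aqp1 of the 13 passed (adjusted p = 0.0324), and likewise without WT replicate 2 (0.0397). Without WT replicate 1, where 10.5% of all genes were called, 11 of the 13 fell. The hindbrain choroid plexus is known to make Shh in the embryo. Shh was highest in KO replicate 1 (3.55 CPM), with the lowest choroid plexus sum (242 CPM), and WT replicate 3 (3.11 CPM), with the highest sum (2939 CPM), came next. The part of choroid plexus RNA in the Shh level was not tested. Interneuron genes held 1 of 8 that fell, the glycine transporter gene Slc6a5, at 26.1 ± 1.99 CPM in KO and 39.7 ± 5.82 CPM in WT (adjusted p = 0.0225). That call was lost without any 1 of the KO libraries (0.0568 to 0.127) or WT replicate 2 (0.106), and held without WT replicate 1 (0.000581). In the oligodendrocyte lineage, meningeal, endothelial and mural, microglial and brainstem lists, of 39 tested genes in all, 0 passed in edgeR. At an unadjusted p below 0.05, 5 of the 39 were higher and 6 lower, against 17.6% of all genes in either direction. DESeq2 called 2 higher and 2 lower (3.08% of all genes), and edgeR without WT replicate 1 called 2 higher and 5 lower (10.5%). The summed level of the 10 oligodendrocyte lineage genes was 11761 to 12435 CPM in KO and 10780 to 10946 CPM in WT, with no overlap.

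The genes whose profiles over the 6 libraries lay nearest to those of 3 members were taken from 13430 other protein-coding genes of at least 1 CPM, by the root mean square difference of log2 CPM after centring each gene. For Gli1, which itself deviated by 0.20 on this measure, they were Dgkq (0.030), Eml5 (0.033) and Tia1 (0.040). Nearest to Ptch1, which deviated by 0.093, were Fgd4 (0.0099), Thoc2 (0.014) and Srrt (0.015). Each of these 6 genes was higher in WT replicate 1 than in the other WT libraries, as were Gli1 and Ptch1. This follows from choosing them by the profiles of Gli1 and Ptch1 and is no separate result. Tia1, for instance, was at 239, 243 and 239 CPM in KO and 223, 173 and 170 CPM in WT. For Shh, which deviated by 0.17, the nearest were Ppp1r3d (0.069), Fut10 (0.073) and Cdh12 (0.075), a looser match. None of these 9 genes belongs to the Hedgehog lists.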

How the data were processed

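RNA from 6 cerebella was sequenced as paired reads (protocols in the labels). The files hold raw counts of reads per gene, deposited by the authors, who made them with STAR 2.7.5a on mm10/GRCm38, per the submitters' processing notes. The Ensembl 102 annotation is named only in the names of the count tables, and how STAR was set to count is not given here. The column counted without strand was used, since each strand column held nearly equal shares (49.9% to 50.0% in the first). Lines for unmapped (13.8% to 17.2% in KO, 6.52% to 10.03% in WT), multimapping, unassigned and ambiguous reads were left out. GENCODE M21 (GRCm38) matched 55227 of 55487 identifiers.

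Genes were tested with edgeR 4.0.16 in R 4.3.3 (TMM, quasi-likelihood F test, two-sided, filterByExpr with a minimum count of 10 and total of 15, Benjamini-Hochberg). Intervals come from the fold change and F statistic, with 6.36 prior degrees of freedom. CPM used TMM sizes, and log2 CPM a prior count of 2. The steps were tested on simulated data. P-values measure the spread between 3 animals per group, and reads may be PCR copies.

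Alternatives were DESeq2 1.42.0, limma-voom 3.58.1, DESeq2 size factors, 2 other filters, a GC content offset (loess, span 0.3), transcript length and leaving out each library. The members, lists and tests were chosen with earlier results of these data known. Named genes are the 9 members, up to 3 of each other list by p (fewer for cell types) and any called, and 3 nearest profiles. A gene that this rule names is not reported here.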

Additional observations from a re-analysis of the deposited data

How the results depend on the processing

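The number of Hedgehog genes called stayed at 0 of 9 with DESeq2, limma-voom, DESeq2 size factors, a filter of 1 CPM in 3 libraries and the GC content offset. It was 1 (Gli1, adjusted p = 0.0329) with no filter on low counts, a fit in which the spread of single genes was pooled fully over all genes, and 0 to 2 on leaving out each library, with 2 only without WT replicate 1. Gli1, Ptch1, Hhip and Smo kept their direction in all 12 alternatives, with log2 fold changes of 0.25 to 0.44, 0.10 to 0.20, 0.13 to 0.30 and -0.14 to -0.01. Shh, Gli2, Gli3, Boc and Cdon changed sign in 1 to 4 of the 12 and passed in none. The count of members with an interval within 1.5-fold was 8 or 9 throughout. Over all genes, 143 higher and 159 lower calls became 290 and 272 with DESeq2, 803 and 820 with no filter, and 28 to 959 and 53 to 962 on leaving out 1 library. In the other lists together, 3 higher and 11 lower calls became 10 and 17 with DESeq2, 11 and 31 with no filter, and 0 to 14 and 1 to 26 on leaving out 1 library. The cause of these changes was not tested. No paired analysis was possible because the labels give no replicate numbers and tie no KO mouse to a WT mouse by litter or day, and the numbers used here only name the libraries. Depth limits Shh most, with 42 to 106 counts per library.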
